A study of Mus musculus with 3 samples.

Results

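The genes described here encode 10 surface or secreted molecules, mostly ligands, through which antigen-presenting cells and lymphocytes stimulate or restrain each other, namely Cd80, Cd86, Cd274, Pdcd1lg2, Icosl, Cd40, Tnfsf9, Lgals9, Pvr and Cd276. They were chosen by name, and were found among 36835 genes for which the deposited table gave a level. For each transcript identifier, the first row with a value in all 3 columns was kept, and the rows of a gene were summed. All 10 genes had a level by this rule. Levels are in FPKM, fragments divided by transcript length and by library size, a unit that allows genes of different length to be compared.

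RNAseq was performed on macrophages and CD4 T cells sorted by FACS from BALB/C mice carrying Renca tumors, which grow from a mouse renal cancer line injected into the kidney. There were 3 libraries, 1 for each cell subset, labelled M1 (type-1 macrophages, F4/80 intermediate and CD11b high), M2 (type-2 macrophages, F4/80 high and CD11b intermediate) and CD4 (TCRbeta+ CD4+ T lymphocytes). All mice bore tumors, and the labels name no treatment or genetic change. Each library was a pool of animals, since the labels give 30 tumors and 4 spleens, so that there were no replicates, no test between subsets was possible, and no p-value is given. Labels disagree on the day of harvest (day 14 or day 16) and on the organ of the CD4 T cells (tumor or spleen).

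Signals from these ligands decide what follows when a T cell meets its antigen. CD80 and CD86 bind the activating receptor CD28 and the inhibitory receptor CTLA-4, while PD-L1 and PD-L2, the products of Cd274 and Pdcd1lg2, bind the inhibitory receptor PD-1. In tumors, macrophages and dendritic cells are known carriers of both kinds of signal, and several of these ligands can also be found on activated lymphocytes and tumor cells.

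Markers of the sorted subsets were examined first, because each ratio between libraries rests on the labels. Each of 12 T-cell markers had its highest level in the library labelled M2. Their summed level was 2.26 FPKM in the library labelled M1, 1880 in that labelled M2 and 1.84 in that labelled CD4. Cd3e, a chain of the CD3 complex, stood at 0.131, 126 and 0.141 FPKM respectively, while Cd247 was listed at 0 in the libraries labelled M1 and CD4. The reverse was seen for macrophage genes, as all 15 on the list were lowest in the library labelled M2, with summed levels of 8788, 685 and 13961 FPKM. The growth factor receptor Csf1r was at 279, 15.3 and 519 FPKM, Emr1, which encodes F4/80, at 45.3, 9.16 and 215, and Itgam, which encodes CD11b, at 299, 14.7 and 201. T-cell genes were therefore near 0 in the library labelled CD4 and abundant in that labelled M2, against both labels, and the libraries are named only by their labels throughout.

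Markers of other cells differed between libraries as well. The 10 B-cell genes summed to 1.64, 76.6 and 11.9 FPKM in the libraries labelled M1, M2 and CD4, with Cd79a at 0.161, 18.2 and 0.151 and Pax5 at 0 in each. Kidney epithelium genes (10) summed to 73.5, 198 and 93.9 FPKM, and were highest in the library labelled M2 for 6 genes. The 9 fibroblast and endothelial genes summed to 11.1, 46.2 and 34.9 FPKM, but 35.0 of the 46.2 came from Pecam1, and 6 of the 9 were highest in the library labelled CD4, among them Col3a1 at 2.34, 3.59 and 10.8. The 7 dendritic cell genes summed to 150, 26.5 and 32.8 FPKM, with Itgax at 124, 5.3 and 29.5. Even so, 4 of the 7 were highest in the library labelled M2, with Siglech at 0.286, 13.2 and 0.280, while Flt3 was at 0.314, 2.19 and 0.227 and Zbtb46 at 1.42, 0.628 and 1.21. The part that these cells had in the ligand levels was not tested. In such pooled RNA, fewer cells of a type and less RNA per cell cannot be told apart.

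Estimated depth was between 60129456 and 72504569 fragments per library. From this depth, the fragments behind each level were estimated, and 95% intervals were calculated that cover counting error only and say nothing of the difference between animals. A level listed at 0 may be a failed estimate, because 7 to 9 of 75 ribosomal protein genes were also listed at 0.

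Across the 10 ligand genes, the median level was 17.3 FPKM in the library labelled M1, 4.18 in that labelled M2 and 9.75 in that labelled CD4. The median over all genes above 0 differed far less, at 2.83, 3.04 and 2.82 FPKM. Ligands at 10 FPKM or more numbered 7, 3 and 5 in the same order. Summed over every row of a gene, with a missing value taken as 0, the medians were 18.9, 9.88 and 11.8 FPKM and the numbers at 10 FPKM or more 7, 5 and 6. By the first complete rows, 8 of the 10 reached 1 FPKM in every library. The highest level was in the library labelled M1 for 6 genes, in that labelled CD4 for 3 and in that labelled M2 for 1, while the lowest was in that labelled M2 for 7 and in that labelled CD4 for 3. For Cd40 the libraries labelled M1 and CD4 were within counting error of each other. Over all rows, the lowest level was in the library labelled M2 for 5 genes and in that labelled CD4 for 5. No share of all genes was calculated for these counts of highest and lowest levels, nor for those at 10 or 1 FPKM. Such counts describe the 10 ligands only. By the first complete rows, Lgals9 was the most abundant ligand in every library, and made up 37.9%, 53.2% and 59.0% of the summed ligand level. Over all rows, Icosl at 96.4 FPKM exceeded Lgals9 at 82.1 in the library labelled M1, and the share of Lgals9 was 25.6%, 42.2% and 45.6%.

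**Figure D1:**
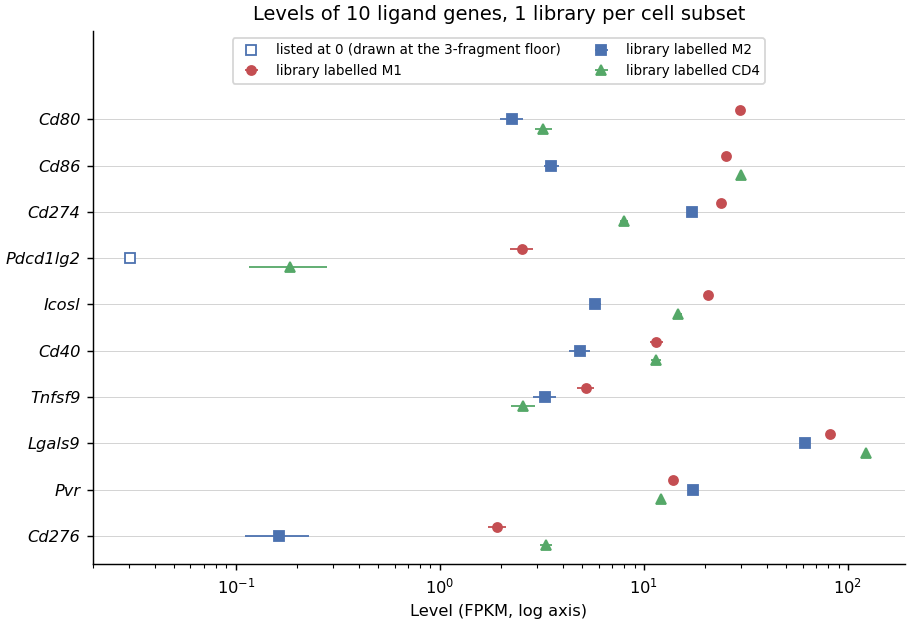
Level of each ligand gene in FPKM on a log axis, with 1 point per library and bars for the 95% counting interval; the open square is Pdcd1lg2 in the library labelled M2, listed at 0 and drawn at the level of 3 fragments (0.0303 FPKM). By the first complete rows, drawn here, Cd80 and Cd86 were more than 7 times higher in the library labelled M1 than in that labelled M2. Over all rows, these ratios were 2.96 and 5.01. Pvr spanned only 12.2 to 17.5 FPKM.

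Pairs of libraries were compared on the scale of log2(FPKM + 1), which understates the change of low genes. A gene was counted as past the fold if the ratio of FPKM + 1 was at least 2, among the 11859 genes with a mean level of at least 1 FPKM over the 3 libraries. Of the ligands, 9 passed that minimum and Pdcd1lg2, with a mean of 0.903 FPKM, did not. The 3 comparisons share libraries and are not independent of one another.

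In the library labelled M2, set against that labelled M1, no ligand was past the fold upward and 5 of 9 were past it downward (Cd80, Cd86, Icosl, Cd40 and Cd276). Of all genes tested, 15.5% were past the fold upward and 14.4% downward. The median log2 ratio was -1.10 for the ligands and 0.07 for all genes. When every row of a gene was summed instead, this count fell to 3 of 10, since Cd40 and Cd276 were no longer past the fold. By that reckoning, 13.5% of all genes were downward.

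In the library labelled CD4, set against that labelled M1, no ligand was past the fold upward and 2 were past it downward (Cd80 and Cd274), with backgrounds of 6.14% and 6.43%. Medians were -0.18 for the ligands and -0.01 for all genes. Summed over every row, 3 of 10 were past the fold downward, with Icosl and Pdcd1lg2 in place of Cd80, beside 6.27% of all genes. Between the libraries labelled M2 and CD4, 1 ligand was past the fold upward in that labelled M2 (Cd274) and 4 downward (Cd86, Icosl, Cd40 and Cd276), with backgrounds of 15.9% and 15.2%. Here the medians were -0.98 and 0.09. Summed over every row, the counts were again 1 and 4, but Cd80 took the place of Cd40, with backgrounds of 18.8% and 14.2%. The call for Cd274 lay at the limit, with a log2 ratio of 1.02, or 0.96 after scaling of the libraries by the median ratio of expressed genes. Lgals9 lay at the limit on the other side, with -0.98 or -1.04.

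**Figure D2:**
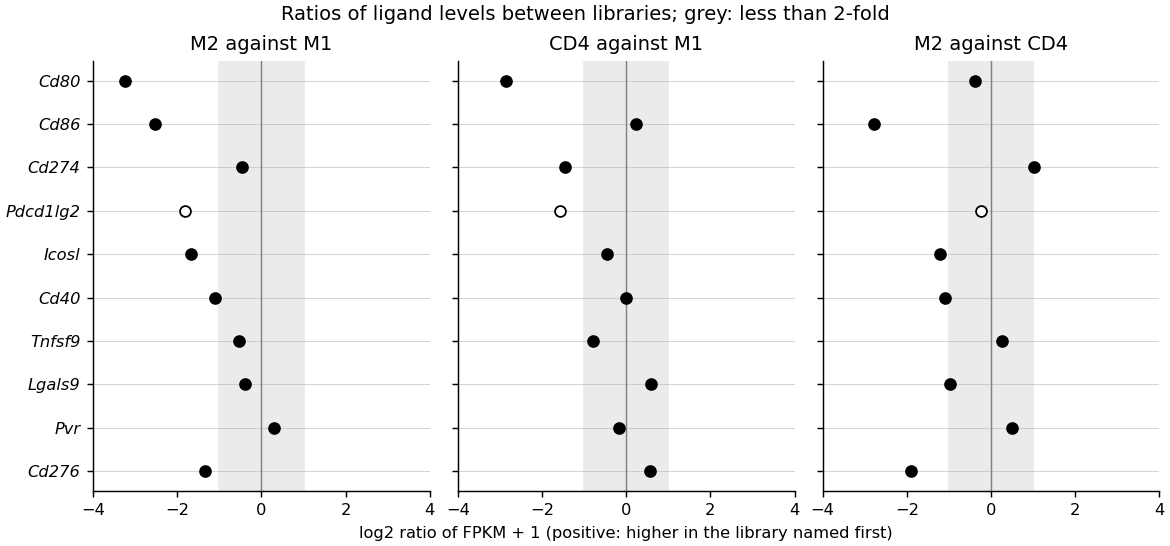
Log2 ratio of FPKM + 1 for each ligand gene in the 3 comparisons, positive where the library named first was higher; the grey band holds ratios below 2-fold, and open circles mark Pdcd1lg2, which lay below the minimum mean level. Against M1, the library labelled M2 had 5 filled points left of the band and none right of it, whereas that labelled CD4 had only Cd80 and Cd274 left of the band.

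The B7 ligands of CD28 were described first. Cd86 (ENSMUSG00000022901, chr16:36603955-36666167, reverse strand, build NCBIM37, also called mm9) encodes a constitutive ligand of antigen-presenting cells. It was at 25.2 FPKM (95% counting interval 24.4 to 26.0) in the library labelled M1, 3.52 (3.23 to 3.83) in that labelled M2 and 29.9 (29.2 to 30.7) in that labelled CD4. Levels were thus 7.15 times (6.53 to 7.84) higher in the library labelled M1 than in that labelled M2, and 8.5 times (7.77 to 9.30) higher in that labelled CD4. Both high libraries were those with high macrophage genes, and they differed from each other by 1.19 times (1.14 to 1.24). In the rows counted, all of the level was assigned to Cd86-001. A further row of Cd86-201 held 1.51 FPKM in the library labelled M2 only, with which Cd86 was at 5.03 FPKM there and the ratios were 5.01 and 5.95.

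Cd80 (ENSMUSG00000075122, chr16:38459013-38495821, forward strand), the inducible partner of Cd86, did not follow that order. It was at 29.5 FPKM (28.5 to 30.5) in the library labelled M1, 2.25 (1.98 to 2.55) in that labelled M2 and 3.22 (2.92 to 3.54) in that labelled CD4. By these values Cd80 was high in 1 library only, 13.1 times (11.5 to 14.9) above that labelled M2 and 9.16 times (8.27 to 10.2) above that labelled CD4. The ratio of Cd80 to Cd86 was 1.17, 0.639 and 0.108 in the libraries labelled M1, M2 and CD4, and 2.31, 3.91 and 1.79 over all rows.

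This result for Cd80 depended on the rows that were counted. The table held 19 rows for the gene, 17 of them for the transcript Cd80-202, and the rule left out 16. These 16 summed to 28.8 FPKM in the library labelled M1, 17.4 in that labelled M2 and 50.3 in that labelled CD4. When they were added, Cd80 was at 58.3, 19.7 and 53.5 FPKM, and the log2 ratio of the library labelled CD4 to that labelled M1 moved from -2.85 to -0.12 and was no longer past the fold. Cd80 remained lower in the library labelled M2 than in the others by either reckoning.

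Annotated transcripts of Cd80 differ in a coding exon of 282 bases at chr16:38479146-38479427, which holds 93 whole codons, among them 2 for cysteine, and keeps the reading frame when it is skipped. Cd80-201 and Cd80-202 hold this exon and Cd80-203 lacks it. It is printed below because the share of transcripts holding it turned on the rows counted, with the exon in capitals and 9 coding bases on each side in lower case, 5′ to 3′ on the coding strand.
Cd80 exon: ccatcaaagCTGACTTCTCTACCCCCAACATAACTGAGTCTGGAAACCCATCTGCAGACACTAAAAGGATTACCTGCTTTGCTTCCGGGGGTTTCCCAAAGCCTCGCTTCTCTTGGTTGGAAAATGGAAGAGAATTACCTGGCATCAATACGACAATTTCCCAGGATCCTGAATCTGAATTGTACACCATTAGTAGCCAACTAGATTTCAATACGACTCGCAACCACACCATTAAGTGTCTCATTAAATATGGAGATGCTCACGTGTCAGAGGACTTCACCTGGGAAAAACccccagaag

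Cd80-201 was at 17.4 FPKM in the library labelled M1, 1.01 in that labelled M2 and was listed at 0 in that labelled CD4. Cd80-203, without the exon, was at 4.15, 0.357 and 1.84 FPKM. Transcripts holding the exon made up 85.9%, 84.1% and 42.7% of the coding level in the libraries labelled M1, M2 and CD4 by the first complete rows, in which Cd80-202 was at 7.97, 0.882 and 1.38 FPKM. A second complete row of Cd80-202 brought the shares to 92.3%, 97.7% and 92.2%, and all rows to 92.9%, 98.2% and 96.6%. The lower share in the library labelled CD4 was therefore not found once the other rows were counted.

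**Figure D3:**
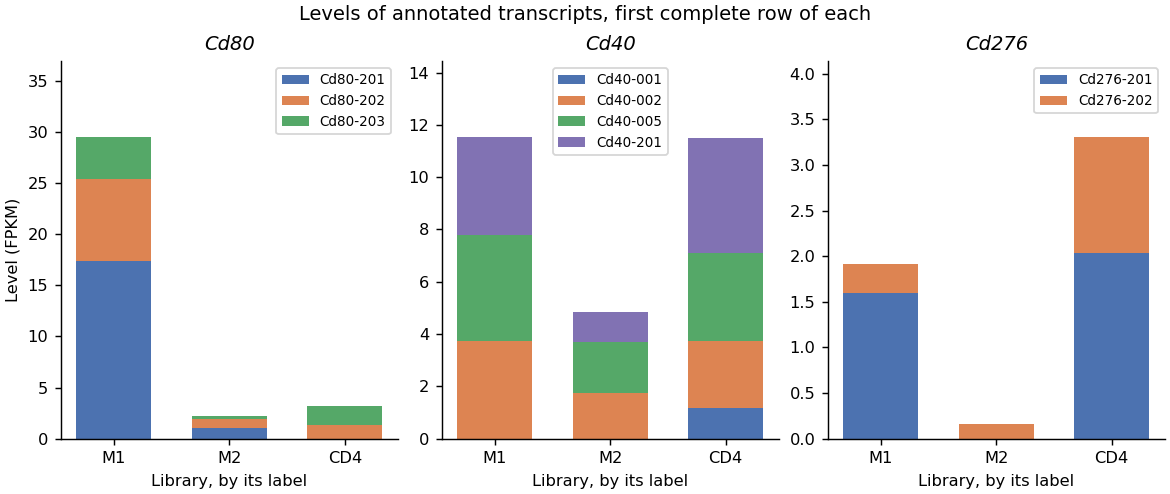
Stacked bars of the FPKM assigned to annotated transcripts of Cd80, Cd40 and Cd276 in each library, first complete row of each transcript and transcripts above 0 in any library; the 3 panels have different vertical scales, each starting at 0. In the library labelled CD4 the Cd80 bar has no Cd80-201, and Cd40-001, the full-length Cd40 transcript, appears there alone at 1.17 FPKM.

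The PD-1 ligands lie side by side on chromosome 19, with 22823 bases between them. Cd274 (ENSMUSG00000016496, chr19:29441945-29462585, forward strand), which encodes PD-L1, was at 23.8 FPKM (23.2 to 24.5) in the library labelled M1, 17.2 (16.7 to 17.8) in that labelled M2 and 8 (7.66 to 8.35) in that labelled CD4. Between the libraries labelled M2 and CD4 it was the only ligand gene past the fold in favour of M2, with a ratio of 2.15 (2.04 to 2.27). The library labelled M1 exceeded that labelled CD4 by 2.98 times (2.83 to 3.13). Cd274 had a single row in the table, so that its level did not depend on the choice of rows.

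Pdcd1lg2 (ENSMUSG00000016498, chr19:29485409-29545647, forward strand), which encodes PD-L2, was far lower than its neighbour. It was at 2.52 FPKM (2.22 to 2.85) in the library labelled M1, listed at 0 in that labelled M2 and at 0.185 (0.116 to 0.280) in that labelled CD4, a ratio of 13.6 (8.82 to 22.1) between M1 and CD4. At the estimated depth, 3 fragments would have given 0.0303 FPKM in the library labelled M2. A second row of the same transcript held 1.64 FPKM in the library labelled M2 and had no value in the others, so that the 0 there depended on the row, and another row held 0.201 FPKM in the library labelled CD4 alone. With these, Pdcd1lg2 was at 2.52, 1.64 and 0.386 FPKM, and the ratio between M1 and CD4 was 6.53. Cd274 exceeded Pdcd1lg2 by 9.44 times in the library labelled M1 and by 43.2 times in that labelled CD4, or 20.7 times over all rows.

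The ratio of the inhibitory ligand Cd274 to Cd86 was 0.945 in the library labelled M1, 4.89 in that labelled M2 and 0.267 in that labelled CD4, and over all rows 0.945, 3.42 and 0.267. It was highest in the library labelled M2 by either reckoning. The ratio of Cd274 to Cd80 was 0.808, 7.65 and 2.48 by the first complete rows, but 0.408, 0.875 and 0.149 over all rows. There, Cd274 was below Cd80 in every library, and the order of the libraries labelled M1 and CD4 was turned.

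Icosl (ENSMUSG00000000732, chr10:77532105-77546000, forward strand) encodes the ligand of ICOS, a receptor induced on activated T cells. It was at 20.7 FPKM (20.0 to 21.4) in the library labelled M1, 5.78 (5.42 to 6.16) in that labelled M2 and 14.7 (14.2 to 15.3) in that labelled CD4. The library labelled M2 was the lowest, by 3.58 times (3.33 to 3.85) against that labelled M1 and 2.55 times (2.37 to 2.75) against that labelled CD4. Only Icosl-202 carried a level, while Icosl-201 was listed at 0 in each library. A further 7 rows of Icosl-202 were left out, with 1 of 57 FPKM in the library labelled M1 alone. Summed over all rows, Icosl was at 96.4, 7.73 and 25.7 FPKM, which kept the order of the libraries but placed the log2 ratio of that labelled CD4 to that labelled M1 at -1.87 in place of -0.46. With the row of highest total alone, only that row of 57 FPKM counted, which had no value in the libraries labelled M2 and CD4. Both were then taken as 0, so that their log2 ratio of 0.00 was fixed and does not compare them.

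Cd276 (ENSMUSG00000035914, chr9:58372107-58402939, reverse strand), which encodes B7-H3, had, by the first complete rows, the widest range of the genes with a level above 0 in every library. It was at 1.91 FPKM (1.73 to 2.12) in the library labelled M1, 0.162 (0.111 to 0.228) in that labelled M2 and 3.31 (3.08 to 3.55) in that labelled CD4. The library labelled CD4 was 20.5 times (14.4 to 30.2) above that labelled M2, and that labelled M1 11.9 times (8.25 to 17.6). Cd276-201 was at 1.60, 0 and 2.03 FPKM, and Cd276-202, which has the same coding length, at 0.318, 0.162 and 1.28. With the 2 rows that were left out, both in the library labelled M2, its level there was 0.704 FPKM and still the lowest, but the ratios were 4.70 and 2.72, and Icosl had the wider range, at 12.5 times.

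Cd40 (ENSMUSG00000017652, chr2:164881127-164898448, forward strand) encodes the receptor by which antigen-presenting cells are licensed by CD40 ligand on helper T cells. It was at 11.5 FPKM (10.7 to 12.4) in the library labelled M1, 4.84 (4.30 to 5.42) in that labelled M2 and 11.5 (10.8 to 12.2) in that labelled CD4. Intervals of the libraries labelled M1 and CD4 overlapped, and the library labelled M2 was 2.39 times (2.09 to 2.74) below that labelled M1. This difference did not hold over all rows. A further 5 rows of the transcript Cd40-001 had a value in the library labelled M2 only and summed to 7.20 FPKM, and with them Cd40 was at 11.5, 12.0 and 11.5 FPKM, so that the log2 ratio to M1 went from -1.10 to 0.06. With the row of highest total for each transcript, it was -0.59.

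**Figure D4:**
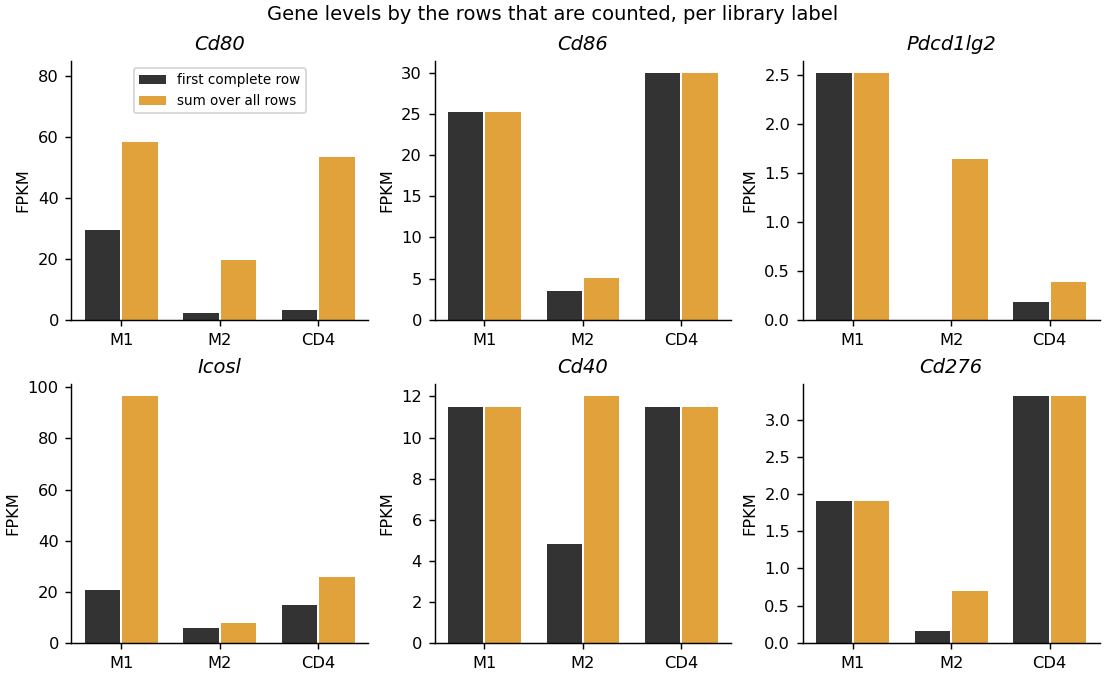
Level in FPKM of the 6 ligand genes with rows outside the counting rule, per library, as the first complete row of each identifier (black) and as the sum over all rows with missing values taken as 0 (orange); vertical scales differ between panels. Cd80 in the library labelled CD4 went from 3.22 to 53.5 FPKM and Cd40 in that labelled M2 from 4.84 to 12.0. Cd86 changed only in the library labelled M2, from 3.52 to 5.03 FPKM.

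The level of Cd40 was divided between transcripts that differ in 2 neighbouring exons. Exon A, of 62 bases at chr2:164892003-164892064, has a length that is not a multiple of 3. It is absent from Cd40-005, whose coding sequence is 609 bases against 867 in the full-length Cd40-001. Exon B, of 87 bases at chr2:164895129-164895215, is absent from Cd40-201, which has 780 coding bases. Of its 28 whole codons 19 encode hydrophobic residues (67.9%), against 25.8% in the Cd80 exon and 25% in exon A. The exons are printed because the full-length transcript, with both, was listed at 0 in 2 of the libraries. Capitals mark the exon and lower case 9 coding bases on each side, 5′ to 3′ on the coding strand.
Cd40 exon A: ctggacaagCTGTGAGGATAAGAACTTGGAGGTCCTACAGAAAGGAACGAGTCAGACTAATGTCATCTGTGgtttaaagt
Cd40 exon B: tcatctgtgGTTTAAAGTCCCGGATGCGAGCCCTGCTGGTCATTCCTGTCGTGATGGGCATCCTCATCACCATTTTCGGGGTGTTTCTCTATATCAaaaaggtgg

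In the first complete rows, Cd40-001 was listed at 0 in the libraries labelled M1 and M2 and was at 1.17 FPKM in that labelled CD4. Cd40-201, without exon B, was at 3.76, 1.12 and 4.40 FPKM. Cd40-005, without exon A, was at 4.06, 1.96 and 3.38 FPKM. Cd40-002, annotated as a target of nonsense-mediated decay, was at 3.73, 1.75 and 2.55 FPKM. Transcripts without exon B thus made up 48.1%, 36.4% and 49.1% of the coding level in the libraries labelled M1, M2 and CD4. Rows that were left out all belonged to Cd40-001 in the library labelled M2, so that the 0 of the full-length transcript there also depended on the row, and with them the share without exon B in that library was 10.9%.

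Tnfsf9 (ENSMUSG00000035678, chr17:57244808-57247180, forward strand) encodes the ligand of 4-1BB. It was at 5.18 FPKM (4.68 to 5.71) in the library labelled M1, 3.26 (2.86 to 3.70) in that labelled M2 and 2.56 (2.24 to 2.92) in that labelled CD4. The largest of its ratios, between the libraries labelled M1 and CD4, was 2.02 (1.71 to 2.39), which on the FPKM + 1 scale was below 2-fold (log2 ratio of CD4 to M1, -0.79).

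Lgals9 (ENSMUSG00000001123, chr11:78776476-78798448, reverse strand) encodes galectin-9, a sugar-binding protein described as a ligand of TIM-3. It was at 82.1 FPKM (80.2 to 83.9) in the library labelled M1, 61.9 (60.3 to 63.5) in that labelled M2 and 123 (121 to 125) in that labelled CD4. The library labelled CD4 was the highest, 1.5 times (1.46 to 1.54) above that labelled M1 and 1.99 times (1.93 to 2.05) above that labelled M2. All of the level was assigned to Lgals9-001, with 966 coding bases. A coding exon at chr11:78783216-78783308 on the reverse strand, of 93 bases, is present in full in Lgals9-201, and that transcript was listed at 0 in each library. Lgals9-002, which also has more coding bases (1056), was at 0 as well. The exon is printed because it separates the transcript that was found from a longer one that was not, with the exon in capitals and 9 coding bases on each side in lower case, 5′ to 3′ on the coding strand.
Lgals9 exon: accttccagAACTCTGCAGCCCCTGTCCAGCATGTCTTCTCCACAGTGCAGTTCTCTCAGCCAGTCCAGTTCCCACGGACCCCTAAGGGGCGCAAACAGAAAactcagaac

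Pvr (ENSMUSG00000040511, chr7:20488927-20506509, reverse strand) encodes CD155, which binds the inhibitory receptor TIGIT as well as CD226 and CD96. It was at 13.9 FPKM (13.4 to 14.4) in the library labelled M1, 17.5 (16.8 to 18.1) in that labelled M2 and 12.2 (11.7 to 12.6) in that labelled CD4. By the first complete rows Pvr had the narrowest range of the 10 genes, 1.44 times between the highest and the lowest library, and was the only one that was highest in the library labelled M2. Over all rows, Cd40 had a range of 1.05 times and was also highest there.

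By the first complete rows, the order of the ligands differed between libraries below Lgals9. In the library labelled M1 it was followed by Cd80, Cd86, Cd274, Icosl, Pvr, Cd40, Tnfsf9, Pdcd1lg2 and Cd276, with overlapping counting intervals between Cd86 and Cd274. In that labelled M2, Pvr and Cd274 came next with overlapping intervals, before Icosl and Cd40, Cd86 and Tnfsf9, which overlapped as pairs, and then Cd80 and Cd276. In that labelled CD4, Cd86 and Icosl came next, before Pvr and Cd40, whose intervals overlapped, and Cd274. Cd276, Cd80 and Tnfsf9 followed there, each overlapping its neighbour, with Pdcd1lg2 last. Over all rows, Icosl came before Lgals9 in the library labelled M1, and Cd80 followed Lgals9 directly in those labelled M2 and CD4.

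Receptors of these ligands had levels for 9 of the 10 genes listed. Icos had no row with values in all 3 columns and is not analysed here. In the library labelled M2, set against that labelled M1, 7 receptors were past the fold upward and 1 downward, and set against that labelled CD4, 8 upward and 1 downward, beside 15.5% and 14.4%, and 15.9% and 15.2%, of all genes. Cd28 was at 0.178 FPKM in the library labelled M1, 47.8 in that labelled M2 and 0.809 in that labelled CD4. Ctla4 was at 0.0538, 13.1 and 0.0393 FPKM, and Pdcd1, which encodes PD-1, at 0.206, 10.1 and 0.129. Cd40lg, the partner of Cd40, was at 0.0692, 19.6 and 0.0516 FPKM. These receptors of T cells were abundant only where the T-cell markers were, in the library labelled M2.

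Receptors of Pvr were distributed likewise, with Tigit at 0.0602, 10.3 and 0 FPKM, Cd96 at 0.0326, 34.8 and 0.0526, and Cd226 at 0.646, 13.3 and 0.173. The remaining 2 receptors were also present in the library labelled M1. Tnfrsf9, which encodes 4-1BB, was at 12.3, 12.9 and 1.88 FPKM. Havcr2, which encodes TIM-3, was at 12.1, 0.650 and 4.51 FPKM, and was the only receptor with its lowest level in the library labelled M2. In the library labelled CD4, set against that labelled M1, these 2 receptors were past the fold downward and none was upward. Of all genes, 6.43% were downward and 6.14% upward.

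**Figure D5:**
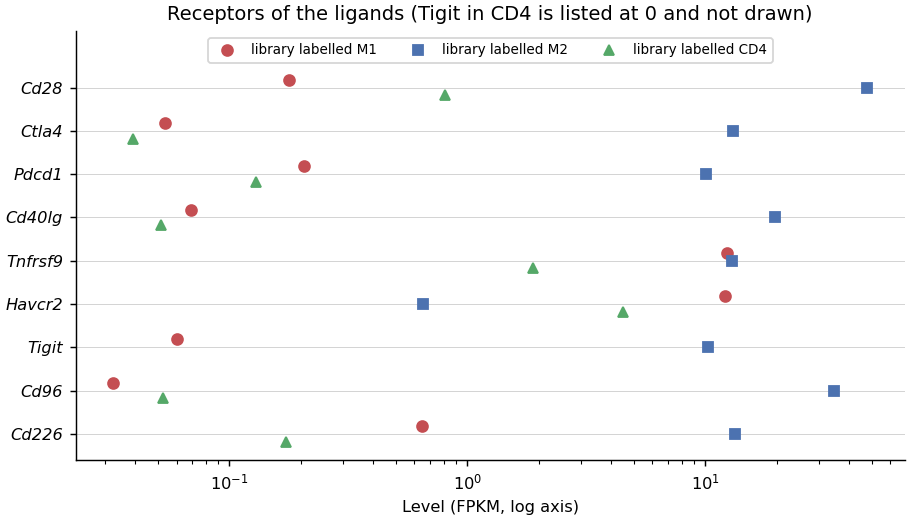
Level in FPKM on a log axis of 9 receptors of the ligands, 1 point per library. Of the squares (library labelled M2), 8 lie at 10.1 FPKM or above, and Havcr2 is the exception at 0.650.

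Among 14 other ligands on a companion list, not all of the same families, 8 passed the minimum level. In the library labelled M2, 3 of them were past the fold upward and 2 downward against that labelled M1, and 3 upward and 3 downward against that labelled CD4, while 1 was downward in that labelled CD4 against that labelled M1. Shares over all genes were 15.5% and 14.4%, 15.9% and 15.2%, and 6.43%. Tnfsf8, the CD30 ligand, was at 3.59, 16.0 and 2.80 FPKM in the libraries labelled M1, M2 and CD4, and Tnfrsf14, which encodes HVEM, at 3.47, 28.6 and 3.07. Both were highest in the library labelled M2. Vsir, which encodes VISTA, was at 66.1, 39.5 and 82.2 FPKM, and Icam1, the adhesion ligand of LFA-1, at 39.6, 10.3 and 30.6, so that both were lowest there. Abundant ligands were thus found on either side of the comparison.

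Interferon gamma is known to induce Cd274 through a route that includes JAK kinases and IRF1. Of 8 genes of this route and of ligand stability, 3 were past the fold upward and 2 downward in the library labelled M2 against that labelled M1. Against that labelled CD4, 4 were upward and 2 downward. The shares of all genes in these directions were 15.5% and 14.4%, and 15.9% and 15.2%. Irf1 was at 22.4, 77.9 and 27.4 FPKM in the libraries labelled M1, M2 and CD4, and Cd274 at 23.8, 17.2 and 8. Whether this route had a part in the level of Cd274 was not tested. Jak1 was at 60.5, 146 and 54.5 FPKM, and Jak2 at 26.3, 26.1 and 9.50. Jak2 was the only one of the 8 past the fold in the library labelled CD4 against that labelled M1, downward. Of all genes, 6.43% were downward and 6.14% upward in that comparison. Ifngr2, a chain of the interferon gamma receptor, was at 11.5, 3.48 and 21.7 FPKM. March1, a ubiquitin ligase that removes CD86 from the cell surface, was at 24.9, 2.83 and 24.1 FPKM, and like Cd86 was low in the library labelled M2 alone.

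Of 10 genes of CD40 signalling, 1 was past the fold upward in the library labelled M2 against that labelled M1, 4 were against that labelled CD4, and none was downward in either comparison. None was past the fold between the libraries labelled CD4 and M1. Of all genes, 15.5% and 15.9% were upward in the library labelled M2 in these 2 comparisons, and 14.4% and 15.2% were downward. For the library labelled CD4 against that labelled M1, the shares were 6.14% upward and 6.43% downward. The first count, 1 of 10, was near the share of all genes. Traf1 was at 2.24, 11.9 and 1.29 FPKM in the libraries labelled M1, M2 and CD4, and Traf3 at 5.04, 10.2 and 3.83. Traf5 was at 8.94, 16.5 and 5 FPKM, and Map3k14, which encodes the NF-kappaB inducing kinase, at 6.93, 12.6 and 5.32. These genes also act downstream of other receptors of the TNF family, and all 4 were highest in the library where Cd40, by the first complete rows, was lowest. Over all rows, Cd40 was at 11.5, 12 and 11.5 FPKM and was no longer lowest there.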

How the data were processed

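Paired reads of 51 bases were aligned by the authors to mouse genome MM9 with Bowtie and TopHat, and transcripts were assembled and quantified with Cufflinks and Ensembl release 67. The deposited values are in FPKM, in 1 table of 135070 rows with a column per library, of which 10182 rows had no identifier. A dash in place of a value was treated as missing. Columns were assigned by their headings. How rows that repeat an identifier arose is not given in the sources used here, and whether the rows left out are further isoforms of a gene was not tested.

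Of 92519 identifiers, 90316 were found in the GENCODE annotation of build NCBIM37 (Ensembl release 65). Exon sequences were read from the NCBIM37 genome. For the ligands, 30 rows were used and 33 left out, of which 30 had a value in 1 library only. FPKM carries no depth, so that the fragments of a library were estimated by taking the commonest small product of FPKM and length, over genes with a single transcript, as the level of 1 fragment. Named genes were all 10 ligands, their receptors, genes of the companion lists with at least 10 FPKM in a library and past the fold in a comparison, transcripts of at least 1 FPKM, and defining markers of T cells, macrophages, B cells and dendritic cells. Itgax, Siglech, Pecam1, Col3a1, Cd247, Pax5 and transcripts listed at 0 were added after their values were seen. The ligands and lists were chosen with earlier results of these data known. The level of 1 list member is part of its list's counts and is not reported here. In all, 9 alternatives were tried. Calculations were tested on simulated data and were run in Python 3.11.15 with pandas 2.3.3, numpy 2.4.6, matplotlib 3.10.9 and scipy 1.17.1.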

Additional observations from a re-analysis of the deposited data

How the results depend on the processing

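No paired analysis was possible because the design had a single library for every subset. For the number of ligands past the fold, main values were 5 of 9 (M2 against M1), 2 of 9 (CD4 against M1) and 5 of 9 (M2 against CD4). With all rows summed and a dash taken as 0, which was among the alternatives planned, M2 against M1 gave 3 of 10, and the log2 ratios of Cd40 changed sign, to 0.06 against M1 and 0.06 against CD4. With the row of highest total per identifier, M2 against CD4 gave 3, as Cd40 and Icosl were no longer past the fold. Of these 3, 1 was upward and 2 were downward, beside 18.7% and 15.9% of all genes. For Icosl, both values were missing in the row of highest total and were taken as 0. A fold of 4 gave 2, 1 and 1 in the same order as the main values. All of these were downward, beside 5.8%, 2.28% and 6.08% of all genes. Under a pseudocount of 0.1 FPKM, no filter, a fold of 1.5, median-ratio scaling, protein-coding transcripts only, and the sum over complete rows (chosen after seeing the data), the 3 counts stayed within 1.5 times their main value. The share of all genes downward changed too. In the order of the main values, it was 4.9%, 2.28% and 5.17% with no filter and 22.9%, 11.4% and 22.5% with a fold of 1.5. Median-ratio scaling left 5 calls between M2 and CD4 but 0 upward, as Cd274 was no longer past the fold and Lgals9 was. Of 30 single-gene log2 ratios, 15 did not change with all rows summed, but no row was added to either level of these, so that this was fixed in advance. Every ratio to which a row was added moved (13) or changed sign (2). Under median-ratio scaling, 28 of the 30 moved by less than their counting interval or did not change when rounded. Pdcd1lg2 between M2 and M1, at -1.82, had no such interval and was counted by the rounding alone. With all rows summed, the background between M2 and M1 was 18.3% upward and 13.5% downward. Levels of Cd80, Cd86, Icosl, Cd40, Pdcd1lg2 and Cd276 depend on how repeated rows are read, and the cause was not tested. With 1 library per subset, counting intervals do not cover differences between animals, sorts or preparations.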
